A study of Mus musculus with 12 samples.

Results

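The TRBJ2 cluster is the downstream group of joining segments of the mouse T cell receptor beta locus, and its use was measured in sorted thymocytes. Its 6 members, TRBJ2-1, TRBJ2-2, TRBJ2-3, TRBJ2-4, TRBJ2-5 and TRBJ2-7, were taken from 36 TRB V and J segments with productive reads, as every J segment whose name starts with TRBJ2. A clonotype, a distinct rearranged chain, was kept when its best-matching J was a member and its CDR3 (the loop encoded where V, D and J meet) was covered, in frame and free of stop codons. Over all libraries 412753 of 572021 productive TRB clonotypes met this rule.

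The libraries came from 3 Chrna9-/- mice and 3 wild-type (WT) mice, each giving 1 library of CD4 single-positive (CD4SP) and 1 of CD8 single-positive (CD8SP) thymocytes, so that the 4 groups (Chrna9-/- CD4SP, WT CD4SP, Chrna9-/- CD8SP and WT CD8SP) held 3 libraries each. Chrna9 encodes a subunit of nicotinic acetylcholine receptors. The mice were untreated, and the series design text describes them as 2 male pairs and 1 female pair without saying which pair is female. RNA was taken from 1000000 CD4SP or 330000 CD8SP cells per sample. The sources used here do not state the strain, the age or how the Chrna9 allele was made, and receptor libraries carry no readout of Chrna9, so the knockout could not be checked. The sort used no marker beyond CD4 and CD8, so immature single-positive, double-positive and invariant T cells may be among the cells, and their number was not measured. In such bulk samples fewer cells with a segment and less receptor RNA per cell cannot be told apart.

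A beta chain is made by joining a D to a J segment and then a V to that D-J unit, with bases trimmed from the ends and others added at the junctions. The TRBJ2 segments lie between TRBD2 and the constant region TRBC2, and a TRBJ2 segment can be joined to TRBD1 or TRBD2, whereas TRBD2 lies downstream of the TRBJ1 cluster. The end of the J segment forms the last part of CDR3, which touches the peptide and MHC. CD4SP cells are selected mainly on MHC class II and CD8SP cells on MHC class I. A join that is out of frame or carries a stop codon makes no protein and is carried along in cells whose other allele was rearranged in frame.

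The 6 members lay on chromosome 6 between TRBD2 (mm10, chr6:41542163-41542176) and TRBC2 (chr6:41546730-41548181), and TRBJ2-6, between TRBJ2-5 and TRBJ2-7, is a pseudogene in the RefSeq table and had no reads. Their germline sequences are shown because the bases that each can give to CDR3, in capitals, differ in number and letters; they were read in the coding direction from deposited clonotypes that held the whole segment, and their positions (mm10) came from the RefSeq gene table, which gives no strand.
TRBJ2-1, chr6:41542754-41542803: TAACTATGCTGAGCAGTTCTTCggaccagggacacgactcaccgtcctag
TRBJ2-2, chr6:41542957-41543007: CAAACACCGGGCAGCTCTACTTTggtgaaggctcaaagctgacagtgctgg
TRBJ2-3, chr6:41543223-41543271: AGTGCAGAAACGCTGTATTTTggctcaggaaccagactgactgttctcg
TRBJ2-4, chr6:41543362-41543410: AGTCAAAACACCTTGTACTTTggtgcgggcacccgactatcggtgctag
TRBJ2-5, chr6:41543453-41543501: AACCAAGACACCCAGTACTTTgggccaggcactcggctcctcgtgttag
TRBJ2-7, chr6:41543810-41543856: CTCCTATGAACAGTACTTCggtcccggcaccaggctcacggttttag

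TRBJ2-2 can give CDR3 23 bases, TRBJ2-1 22 bases, TRBJ2-3, TRBJ2-4 and TRBJ2-5 21 bases each, and TRBJ2-7 19 bases, the fewest of the cluster. All clonotypes that held a whole member (8225 to 23281 per member) had the sequence shown. No read had a second J segment with an equal score. TRBC2 was the constant region named in 99.95% to 99.98% of TRBJ2 reads of a library but also in 99.90% to 99.96% of TRBJ1 reads, so the constant region call did not separate the clusters.

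Productive TRB reads numbered 80040 to 104434 in Chrna9-/- CD4SP, 74021 to 86935 in WT CD4SP, 118507 to 119381 in Chrna9-/- CD8SP and 92648 to 134169 in WT CD8SP libraries. TRBJ2 reads numbered 54007 to 98827 and TRBJ2 clonotypes 28105 to 39337 per library. Clonotypes of 1 read made up 47.1% to 53.6% of the TRBJ2 clonotypes of CD4SP libraries and 31.8% to 36.1% of those of CD8SP libraries, and no clonotype held more than 0.0856% of its TRBJ2 reads. At this depth the 95% Wilson interval of a member's share in 1 library extended 0.123 to 0.299 percentage points to each side. These intervals cover counting error only, since reads carried no molecular identifiers. CD4SP and CD8SP libraries with the same genotype and number in their titles were taken as 1 mouse, and p-values measure the spread between these samples.

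TRBJ2-7 was the most used member in every library and TRBJ2-2 the least used. The cluster took 73.3% ± 0.760 of productive reads in CD4SP and 74.2% ± 0.565 in CD8SP (SD, n = 6 each). In CD4SP TRBJ2-7 took 30.2% of TRBJ2 reads and TRBJ2-2 8.24%, and in CD8SP TRBJ2-7 took 34.0% and TRBJ2-2 7.31%. The members between them changed order between the lineages: in CD4SP the mean shares ran TRBJ2-7, TRBJ2-5, TRBJ2-4, TRBJ2-3, TRBJ2-1, TRBJ2-2, and in CD8SP TRBJ2-7, TRBJ2-1, TRBJ2-5, TRBJ2-4, TRBJ2-3, TRBJ2-2. In CD4SP the ranges of TRBJ2-4 and TRBJ2-3 overlapped, as did those of TRBJ2-3 and TRBJ2-1. In CD8SP only TRBJ2-4 and TRBJ2-3 overlapped among neighbours in that order.

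**Figure D1:**
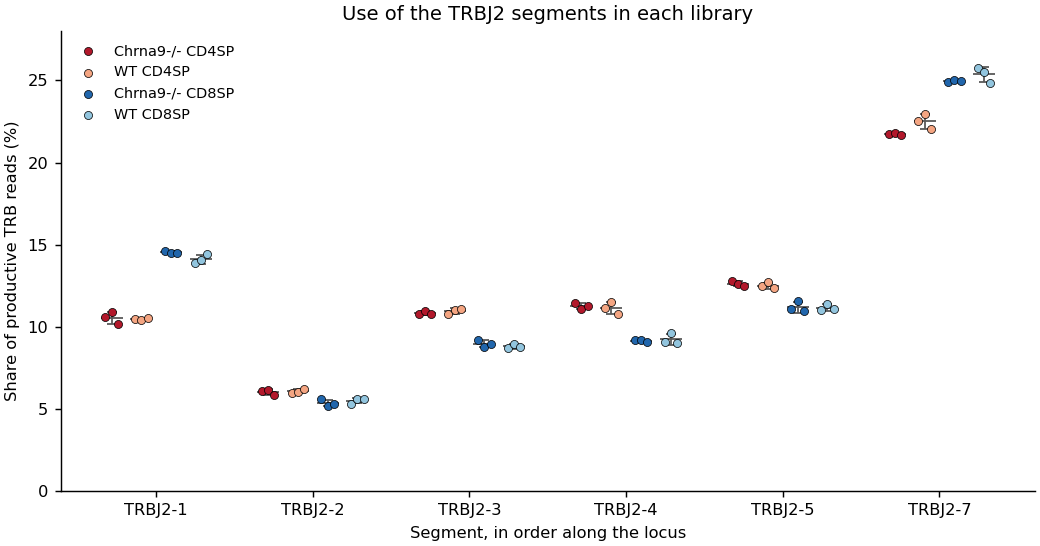
Share of productive TRB reads (%, y axis) that used each TRBJ2 segment (x axis, in order along the locus), with 1 point per library coloured by group and the mean and SD (bars) of the 3 libraries of a group. TRBJ2-1 and TRBJ2-7 lie lower in CD4SP than in CD8SP in every mouse, and the shares of the other 4 segments lie higher. With DESeq2's scaling TRBJ2-2, itself the median segment, stood at -0.00428 on the log2 scale.

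TRBJ2-1 and TRBJ2-7 were used less in CD4SP than in CD8SP, and TRBJ2-3 and TRBJ2-4 were used more. TRBJ2-5 and TRBJ2-2 were used more as shares of all productive reads, but TRBJ2-5 did not pass with DESeq2's scaling, and TRBJ2-2 did not pass with TMM or DESeq2's scaling. With DESeq2 the log2 value of TRBJ2-2 was -0.00428. That scaling rests on the median over segments, where TRBJ2-2 itself lay, so it could not test this member. TRBJ2-1 took 10.15% (lowest), 10.49% (median) and 10.89% (highest) of productive reads in the 6 CD4SP libraries, against 13.89%, 14.44% and 14.63% in the 6 CD8SP libraries. No CD4SP library reached the lowest CD8SP library. The share was lower in CD4SP by 3.82 ± 0.325 percentage points (SD over 6 mice), and the fitted log2 fold change was -0.45 (SE 0.016, adjusted p = 1.40e-12, quasi-likelihood test of edgeR, adjusted by Benjamini-Hochberg over 35 segments). It was the largest relative difference among the 6 members.

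TRBJ2-7 took 21.69%, 21.93% and 22.94% of productive reads (lowest, median and highest) in CD4SP, against 24.87%, 25.003% and 25.74% in CD8SP. These ranges did not overlap, and the share was lower in CD4SP in 6 of 6 mice, by 3.04 ± 0.286 points. The log2 fold change was -0.19 (SE 0.009, adjusted p = 4.76e-11, edgeR).

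TRBJ2-3 took 10.74%, 10.88% and 11.08% of productive reads in CD4SP, against 8.70%, 8.85% and 9.17% in CD8SP. TRBJ2-4 took 10.77%, 11.18% and 11.49% in CD4SP, against 8.98%, 9.12% and 9.61% in CD8SP. Both were higher in all CD4SP libraries than in any CD8SP library, with log2 fold changes of 0.29 (SE 0.018) for TRBJ2-3 and 0.29 (SE 0.016) for TRBJ2-4 (adjusted p = 8.41e-10 for TRBJ2-3 and 3.01e-10 for TRBJ2-4, edgeR).

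TRBJ2-5 took 12.35%, 12.54% and 12.78% of productive reads in CD4SP, against 10.93%, 11.05% and 11.56% in CD8SP. TRBJ2-2 took 5.82%, 6.06% and 6.18% in CD4SP, against 5.18%, 5.44% and 5.61% in CD8SP. The ranges of both were apart, with log2 fold changes of 0.17 (SE 0.015, adjusted p = 5.56e-08) and 0.16 (SE 0.023, adjusted p = 1.65e-05, edgeR). These rest on shares of all productive reads. Scaling by DESeq2's size factors moved the median log2 value of the 35 segments by over 0.1, to -0.004 against 0.16 without scaling. Under it TRBJ2-2 had a log2 value of -0.00428 (adjusted p = 0.877) and TRBJ2-5 one of 0.01 (adjusted p = 0.746). TRBJ2-2 was itself the median of the 35 segments, with and without this scaling. DESeq2's size factors are medians over segments, so they put TRBJ2-2 near 0 by construction and could not test it. With edgeR's TMM scaling TRBJ2-2 had 0.03 (adjusted p = 0.367) and TRBJ2-5 0.04 (adjusted p = 0.0237). TRBJ2-1 and TRBJ2-7 stayed lower, and TRBJ2-3 and TRBJ2-4 higher, under both scalings. DESeq2 thus called 4 of 6 members (2 higher and 2 lower), beside 85.7% of all segments (40% higher and 45.7% lower), and edgeR with TMM called 5 (3 higher and 2 lower), beside 91.4% (45.7% higher and 45.7% lower).

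The 6 calls were also made without clonotypes of 1 read and with each clonotype counted once.

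Of the 6 members, 6 passed the test, 4 higher and 2 lower in CD4SP, and 6 of 6 had ranges that did not overlap. Differences of this kind were common: 85.7% of all 35 segments tested passed (51.4% higher and 34.3% lower), and the ranges of 82.9% were apart. The median size of the log2 fold change was 0.24 over the members and 0.38 over all segments. The cluster as a whole differed little. Its share was lower in CD4SP by 0.839 ± 0.390 points in 6 of 6 mice (p = 0.03125 in an exact sign-flip permutation over mice, two-sided, and 0.0511 after adjustment over 36 measures; 6 mice allow no smaller p), and it was higher in CD4SP by 0.291 points when each clonotype was counted once. The members' opposite differences therefore lay mostly within the cluster.

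The same segments were then compared in nonproductive joins, which numbered 1276 to 2366 reads per library. The cluster took 73.8% (lowest), 77.3% (median) and 79.3% (highest) of them in CD4SP, against 73.6%, 76.2% and 79.1% in CD8SP. TRBJ2-1 took 11.98% ± 0.741 of nonproductive reads in CD4SP and 12.57% ± 0.771 in CD8SP (SD, n = 6 each), and its log2 fold change was -0.07 (SE 0.064, adjusted p = 0.493, edgeR). TRBJ2-7 took 23.5% ± 1.42 in CD4SP and 23.9% ± 1.25 in CD8SP, with a log2 fold change of -0.03 (SE 0.034, adjusted p = 0.689). Both pairs of values lay within the spread between libraries.

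TRBJ2-3 took 10.1% ± 0.747 of nonproductive reads in CD4SP and 9.11% ± 1.11 in CD8SP (log2 fold change 0.15, SE 0.080, adjusted p = 0.165). TRBJ2-2 had 0.11 (SE 0.120), TRBJ2-4 0.00 (SE 0.066) and TRBJ2-5 0.01 (SE 0.059). In all, 0 of 6 members passed in nonproductive joins by edgeR, 0 at an unadjusted p under 0.05 too, against 23.5% of the 34 segments tested there. Each member had only 67 to 562 nonproductive reads per library, so small differences were not detectable.

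For the difference itself, the log2 ratio of CD4SP to CD8SP in nonproductive joins was subtracted from that in productive joins in each mouse, a comparison chosen after the data were seen. For TRBJ2-1 the productive ratio was lower by 0.38 ± 0.090 on the log2 scale (SD, n = 6) in 6 of 6 mice, and for TRBJ2-7 by 0.16 ± 0.072 in 6 of 6 mice (exact sign-flip permutation p = 0.03125 each, and 0.09375 after adjustment over the 6 comparisons, above the threshold). For TRBJ2-4 the productive ratio was higher by 0.29 ± 0.211 and for TRBJ2-5 by 0.15 ± 0.124, each in 5 of 6 mice (exact p = 0.0625 each). For TRBJ2-3 the difference was 0.14 ± 0.230 (exact p = 0.375) and for TRBJ2-2 it was 0.04 ± 0.278 (exact p = 0.8125), each positive in 3 of 6 mice.

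**Figure D2:**
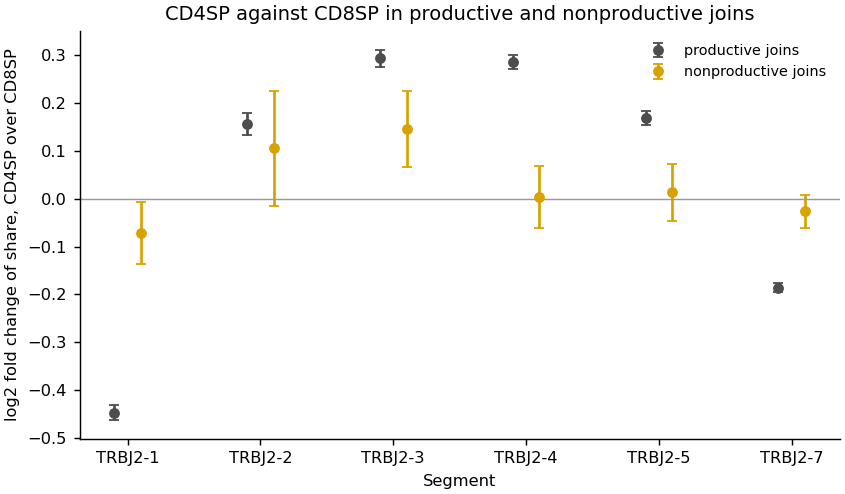
Log2 fold change of each segment's share, CD4SP over CD8SP (y axis), for productive and nonproductive joins, with bars of 1 SE from edgeR. TRBJ2-1 stands at -0.45 in productive and -0.07 in nonproductive joins, and the SE of the nonproductive values is wider throughout.

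The V partners of the cluster differed between the lineages as V use itself did. Of 24 V segments joined to a member, 17 each held at least 1% of TRBJ2 reads and 97.7% of them together. In CD4SP the largest partner was TRBV31, which lies downstream of TRBC2 (chr6:41557693-41558371) and joins by inversion, with 20.2% ± 0.384 of TRBJ2 reads in CD4SP and 4.97% ± 0.232 in CD8SP. TRBV5 held 17.98% ± 0.579 in CD4SP and 10.43% ± 0.528 in CD8SP. TRBV13-1, the largest partner in CD8SP, held 12.5% ± 0.345 in CD4SP and 14.7% ± 0.193 in CD8SP.

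TRBV29 held 5.23% of TRBJ2 reads in CD4SP and 10.7% in CD8SP, TRBV12-1 3.25% in CD4SP and 8.78% in CD8SP, TRBV14 2.47% in CD4SP and 8.33% in CD8SP, and TRBV17 2.22% in CD4SP and 7.07% in CD8SP. TRBV13-3 held 9.56% in CD4SP and 10.9% in CD8SP, TRBV12-2 1.42% in CD4SP and 3.92% in CD8SP, and TRBV16 1.17% in CD4SP and 2.17% in CD8SP. All 7 of these shares were smaller in CD4SP. TRBV13-2 held 4.09% in CD4SP and 2.93% in CD8SP, and TRBV15 held 4.07% in CD4SP and 3.60% in CD8SP. The other 5 (TRBV26, TRBV20, TRBV3, TRBV1 and TRBV4) each held 1.199% to 3.42% in CD4SP and 1.18% to 2.56% in CD8SP.

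How far a V segment relied on the cluster varied more between V segments than between lineages. TRBV17 used a TRBJ2 member in 84.7% ± 1.37 of its reads in CD4SP and 87.2% ± 0.652 in CD8SP, and TRBV14 in 81.0% ± 1.39 in CD4SP and 79.6% ± 0.698 in CD8SP. TRBV31 did so in 68.7% ± 0.737 in CD4SP and 66.1% ± 1.61 in CD8SP, TRBV26 in 67.7% ± 1.38 in CD4SP and 69.1% ± 2.14 in CD8SP, and TRBV20 in 67.8% ± 0.979 in CD4SP and 64.9% ± 1.01 in CD8SP. TRBV17 was thus the partner tied most to the cluster in both lineages. Over mice, TRBV5 (74.4% ± 0.904 in CD4SP and 74.7% ± 0.958 in CD8SP) and TRBV17 used the cluster more in CD4SP in 0 of 6 mice. TRBV20 and TRBV1 did so in 6 of 6, as did TRBV13-1 (75.8% ± 0.951 in CD4SP and 72.5% ± 0.786 in CD8SP) and TRBV12-1 (77.3% ± 1.72 in CD4SP and 74.2% ± 1.36 in CD8SP).

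Because V use differed so much, each member was also compared within the reads of single V segments. TRBJ2-1 was lower in CD4SP within 19 of 21 V segments and higher within 0, with log2 fold changes of -0.82 to -0.16 and a median of -0.40. The largest was within TRBV12-2, of whose reads TRBJ2-1 took 6.92% ± 0.731 in CD4SP and 12.3% ± 1.43 in CD8SP. TRBJ2-7 was lower within 9 of 22 and higher within 0 (median -0.12). TRBJ2-4 was higher within 15 of 21 and lower within 0 (range 0.08 to 0.81, median 0.29). TRBJ2-5 was higher within 11 of 21 and lower within 0, TRBJ2-2 higher within 10 of 21 and lower within 0, and TRBJ2-3 higher within 11 of 21 and lower within 1. In all 76 of 127 such shares passed (edgeR, 47 higher and 29 lower), beside 50.2% of all 249 tested (28.1% higher and 22.1% lower).

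Pairs of a V and a J were then set against the reads expected from the V total and the J total of the same library. Over 107 TRBJ2 pairs with at least 50 expected reads in every library, the ratio of observed to expected reads ran between 0.651 and 1.51 with a median of 1.01. It was above 1 in all 12 libraries for 16 pairs and below 1 in all 12 for 16. The highest ratios over all libraries were those of TRBV17 with TRBJ2-2 (1.51) and TRBJ2-5 (1.41), TRBV4 with TRBJ2-5 (1.32) and TRBJ2-4 (1.27), and TRBV12-2 with TRBJ2-5 (1.27). The lowest were those of TRBJ2-5 with TRBV15 (0.651), TRBV12-1 (0.675) and TRBV20 (0.782), of TRBJ2-3 with TRBV4 (0.755) and of TRBJ2-2 with TRBV13-2 (0.779). TRBJ2-5 stood in 3 of the 5 highest and 3 of the 5 lowest pairs. The order differed between lineages: TRBV4 with TRBJ2-4 had 1.50 in CD4SP and 1.04 in CD8SP, TRBV14 with TRBJ2-5 1.41 in CD4SP and 1.18 in CD8SP, and TRBV17 with TRBJ2-2 1.33 in CD4SP and 1.57 in CD8SP.

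**Figure D3:**
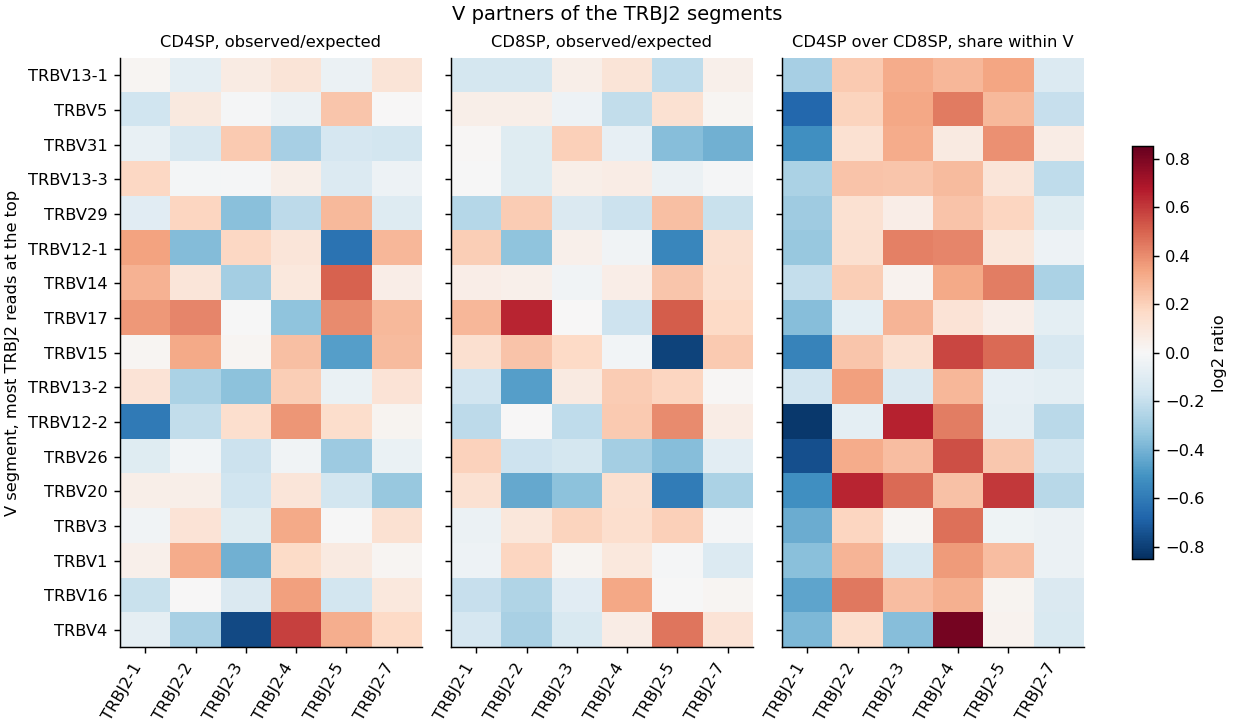
Log2 ratios (colour, red above 0 and blue below) for the 17 V segments with at least 1% of TRBJ2 reads (y axis) and the 6 members (x axis): observed over expected reads in CD4SP and in CD8SP, and the CD4SP over CD8SP ratio of a member's share within a V segment. In the last panel TRBJ2-1 is blue for all 17 V segments and TRBJ2-4 red for all 17.

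Some pairs were used more or less often in CD4SP than their V and J totals gave. Of 127 TRBJ2 pairs tested, 37 passed (edgeR with Benjamini-Hochberg adjustment over 249 pairs), 22 higher and 15 lower in CD4SP, beside 31.7% of all pairs (12.4% higher and 19.3% lower). TRBV4 with TRBJ2-3 reached 0.588 ± 0.106 of its expected reads in CD4SP and 0.916 ± 0.066 in CD8SP, without overlap (log2 fold change -0.65, SE 0.141, adjusted p = 0.000176). TRBV4 with TRBJ2-4 went the other way, at 1.50 ± 0.156 in CD4SP and 1.04 ± 0.185 in CD8SP (log2 fold change 0.53, SE 0.111, adjusted p = 0.000122). In CD4SP TRBV4 chains thus held fewer TRBJ2-3 and more TRBJ2-4 joins than expected, although both segments lie next to each other.

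The other large decreases were those of TRBV1 with TRBJ2-3 (ratio 0.752 in CD4SP and 1.02 in CD8SP), TRBV13-2 with TRBJ2-3 (0.787 in CD4SP and 1.06 in CD8SP), TRBV12-2 with TRBJ2-1 (0.660 in CD4SP and 0.859 in CD8SP) and TRBV2 with TRBJ2-5 (1.07 in CD4SP and 1.44 in CD8SP). The last had an adjusted p of 0.0145, and 0.0554 without clonotypes of 1 read. These are decreases against expected reads. As a share of the V segment's own reads, TRBV1 with TRBJ2-3 did not pass (adjusted p = 0.253, edgeR). Neither did TRBV13-2 with TRBJ2-3 (0.185) or TRBV2 with TRBJ2-5 (0.125), whereas TRBV12-2 with TRBJ2-1 did (6.65e-10). The other large increases were those of TRBV20 with TRBJ2-2 (1.04 in CD4SP and 0.740 in CD8SP), TRBV20 with TRBJ2-5 (0.896 in CD4SP and 0.661 in CD8SP), TRBV12-2 with TRBJ2-3 (1.10 in CD4SP and 0.861 in CD8SP) and TRBV15 with TRBJ2-5 (0.722 in CD4SP and 0.580 in CD8SP). By member, and against expected reads, TRBJ2-3 had 6 of its 21 pairs lower and 1 higher, TRBJ2-1 had 3 lower and 6 higher, and TRBJ2-7 had 0 of 22 lower and 4 higher.

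CDR3 length differed between members. Over each member's productive reads the mean length in CD4SP was 14.42 amino acids for TRBJ2-2, 14.24 for TRBJ2-3, 14.08 for TRBJ2-1, 13.86 for TRBJ2-4, 13.75 for TRBJ2-5 and 13.18 for TRBJ2-7, counted with the conserved cysteine and phenylalanine codons that bound CDR3. The first and last of these are also the members that can give CDR3 the most and the fewest bases, and TRBJ2-3 had more than TRBJ2-4 and TRBJ2-5 although all 3 can give the same number. The commonest length was 15 for TRBJ2-2 and TRBJ2-3 and 14 for the other members.

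The CDR3 sequence found in the most libraries, and with the most reads where several tied, is shown for each member to make the joins concrete. Capitals mark the bases aligned to the J segment.
TRBJ2-1 with TRBV13-3: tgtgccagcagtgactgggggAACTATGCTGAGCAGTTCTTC
TRBJ2-2 with TRBV5: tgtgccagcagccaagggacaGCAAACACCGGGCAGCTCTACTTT
TRBJ2-3 with TRBV13-3: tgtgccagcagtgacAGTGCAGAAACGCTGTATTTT
TRBJ2-4 with TRBV13-1: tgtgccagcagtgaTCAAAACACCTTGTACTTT
TRBJ2-5 with TRBV5: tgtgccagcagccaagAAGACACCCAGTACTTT
TRBJ2-7 with TRBV13-1: tgtgccagcagtgatggTGAACAGTACTTC

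The TRBJ2-3 and TRBJ2-7 chains shown were in 12 of 12 libraries, the TRBJ2-1, TRBJ2-4 and TRBJ2-5 chains in 11 and the TRBJ2-2 chain in 10. In the TRBJ2-2 chain the first capital lies before the germline segment. The TRBJ2-3 chain used its J segment untrimmed and had 43 reads in CD4SP and 86 in CD8SP. The TRBJ2-7 chain had lost 6 J bases, was 10 amino acids long and had 19 reads in CD4SP and 79 in CD8SP. The TRBJ2-4, TRBJ2-5, TRBJ2-3 and TRBJ2-7 chains had no D segment called, unlike most reads of these members. They were 11, 11, 12 and 10 amino acids long, each shorter than the commonest length of its member. These chains are therefore not typical of their members. All 6 were rare, with 54 to 129 reads each over all libraries.

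Over the whole cluster, more chains in CD4SP had lengths in the middle of the distribution, and fewer were short or long. Lengths of 13 to 15 amino acids held 72.7% ± 0.421 of TRBJ2 reads in CD4SP and 68.0% ± 0.199 in CD8SP (SD, n = 6 each), higher in 6 of 6 mice for the cluster and for each member. Lengths of up to 12 held 17.6% ± 0.557 in CD4SP and 20.3% ± 0.423 in CD8SP, and lengths of 16 or more 9.77% ± 0.272 in CD4SP and 11.8% ± 0.329 in CD8SP. The short class ran the other way for TRBJ2-3 (10.9% ± 0.424 in CD4SP and 9.06% ± 0.449 in CD8SP, higher in 6 of 6 mice) and for TRBJ2-5 (13.9% ± 0.428 in CD4SP and 12.9% ± 0.401 in CD8SP, higher in 5 of 6). The mean length of the cluster was 13.77 in CD4SP and 13.78 in CD8SP (difference -0.011 ± 0.0261, longer in 3 of 6 mice, exact sign-flip permutation p = 0.375). Its SD of length was 1.44 in CD4SP and 1.54 in CD8SP, lower in 6 of 6 mice (exact p = 0.03125, adjusted p = 0.0511).

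Behind the near-equal means, the mean length of TRBJ2-7 was higher in CD4SP in every mouse and those of 4 members were lower. TRBJ2-7 had mean lengths of 13.14 to 13.20 in the CD4SP libraries and 12.98 to 13.04 in the CD8SP libraries, which did not overlap (difference 0.159 ± 0.0340, longer in 6 of 6 mice). TRBJ2-3 had 14.22 to 14.26 in CD4SP and 14.47 to 14.56 in CD8SP, also without overlap (difference -0.279 ± 0.0334, shorter in 6 of 6 mice). The difference was -0.140 ± 0.0345 for TRBJ2-2, -0.159 ± 0.0362 for TRBJ2-4 and -0.167 ± 0.0223 for TRBJ2-5, each shorter in 6 of 6 mice. For these 5 members the exact sign-flip permutation p was 0.03125, the smallest that 6 mice allow. After adjustment over 36 measures it was 0.0511, which is above the threshold of 0.05. TRBJ2-1 differed least, at 14.08 in CD4SP and 14.11 in CD8SP (difference -0.0236 ± 0.0324, shorter in 5 of 6 mice, exact p = 0.156).

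**Figure D4:**
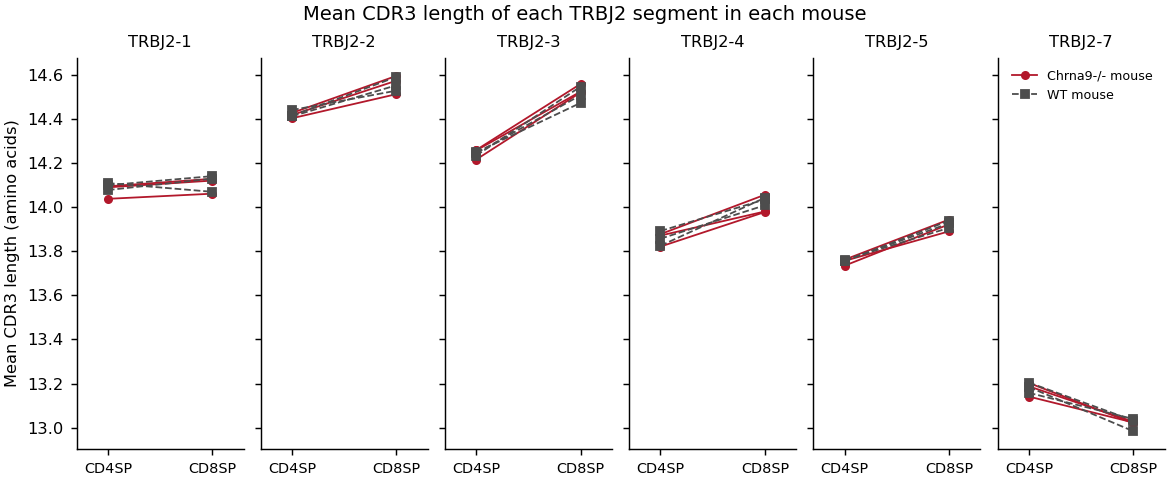
Mean CDR3 length (amino acids, y axis, not starting at 0) of each TRBJ2 segment in CD4SP and CD8SP, with a line joining the libraries of 1 mouse, solid for Chrna9-/- and dashed for WT mice. Lines of TRBJ2-7 fall towards CD8SP in all 6 mice, and those of TRBJ2-2, TRBJ2-3, TRBJ2-4 and TRBJ2-5 rise.

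With each library's V mix held equal, an alternative added after seeing the data, the differences had the same sign. They were -0.361 for TRBJ2-3, -0.256 for TRBJ2-4, -0.230 for TRBJ2-2, -0.223 for TRBJ2-5, -0.0441 for TRBJ2-1 and 0.111 for TRBJ2-7. The adjusted p was 0.0625 for TRBJ2-1 and 0.0365 for each other member and the cluster (exact sign-flip permutation). This adjustment covered fewer comparisons, chosen after the data were seen. For the whole cluster the mix of V-J pairs was held, so that J use was fixed along with V use. Its difference was then -0.110, shorter in CD4SP in 6 of 6 mice, and the parts of V and J use in this were not separated. Within single V segments TRBJ2-3 chains were on average shorter in CD4SP in 18 of 19, TRBJ2-5 chains in 20 of 21, TRBJ2-4 chains in 18 of 20, TRBJ2-2 chains in 16 of 18 and TRBJ2-1 chains in 14 of 21. TRBJ2-7 chains were longer in CD4SP within 12 of 21 V segments and longer in CD8SP within 9, so its direction was less uniform across V segments. They were longer in CD4SP in 6 of 6 mice within only 4 V segments (TRBV13-1, TRBV13-2, TRBV13-3 and TRBV29). Within 6 V segments they were longer in CD8SP in 6 of 6 mice.

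Single lengths were tested within each member, so that J use did not enter. Of 66 lengths of the members, 40 passed (edgeR with Benjamini-Hochberg adjustment over 118 lengths of all J segments), 14 higher and 26 lower in CD4SP, beside 59.3% of all 118 (21.2% higher and 38.1% lower). A length of 13 amino acids was higher in CD4SP for all 6 members. For TRBJ2-2 it held 14.2% ± 1.24 of reads in CD4SP and 9.20% ± 0.847 in CD8SP (log2 fold change 0.63, SE 0.052), for TRBJ2-3 16.83% ± 0.566 in CD4SP and 10.95% ± 0.732 in CD8SP (0.62, SE 0.036), and for TRBJ2-4 25.7% ± 0.397 in CD4SP and 18.5% ± 0.586 in CD8SP (0.47, SE 0.029). The other large increases were a length of 11 for TRBJ2-3 (2.41% in CD4SP and 1.68% in CD8SP) and for TRBJ2-5 (4.30% in CD4SP and 3.45% in CD8SP).

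Of the lengths of 16 or more, 16, 17 and 18 were each lower in CD4SP for TRBJ2-3, TRBJ2-4 and TRBJ2-5, 16 alone for TRBJ2-1 and TRBJ2-2, and 17 alone for TRBJ2-7. A length of 16 held 13.1% ± 0.332 of TRBJ2-3 reads in CD4SP and 18.5% ± 1.22 in CD8SP (log2 fold change -0.50, SE 0.034), and 5.63% ± 0.256 of TRBJ2-5 reads in CD4SP and 7.95% ± 0.462 in CD8SP (-0.50, SE 0.047). A length of 17 held 2.62% of TRBJ2-4 reads in CD4SP and 3.90% in CD8SP (-0.57, SE 0.077), and 1.47% of TRBJ2-5 reads in CD4SP and 2.20% in CD8SP (-0.59, SE 0.096). A length of 15 was also lower for TRBJ2-2, TRBJ2-3, TRBJ2-4 and TRBJ2-5.

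Short chains were lower in CD4SP for several members. For TRBJ2-2 lengths of 10, 11 and 12 were lower and for TRBJ2-4 lengths of 10 and 11, with log2 fold changes of -0.92 (SE 0.366) and -0.75 (SE 0.156) at a length of 10, which held under 1% of the reads of both. For TRBJ2-7, which has more short chains than the other members, lengths of 10, 11 and 12 were lower in CD4SP and lengths of 13, 14 and 15 higher, and a length of 10 held 2.14% ± 0.172 of its reads in CD4SP and 2.95% ± 0.194 in CD8SP (log2 fold change -0.46, SE 0.055, adjusted p = 3.18e-15). Lengths of up to 12 held 30.5% ± 0.944 of TRBJ2-7 reads in CD4SP and 36.8% ± 0.737 in CD8SP, whereas lengths of 16 or more held 2.94% in CD4SP and 2.97% in CD8SP. For TRBJ2-3 lengths of 16 or more held 16.9% ± 0.249 in CD4SP and 23.5% ± 1.16 in CD8SP. With the V mix held, 43 of 66 lengths passed (16 higher and 27 lower), beside 63.6% of all 118 (22.9% higher and 40.7% lower). Lengths of 11 and 12 for TRBJ2-2 then no longer passed (log2 fold changes -0.18 and -0.05, adjusted p = 0.231 and 0.517, edgeR). Neither did a length of 11 for TRBJ2-1 (-0.10, adjusted p = 0.199). A length of 12 for TRBJ2-4 newly passed as higher in CD4SP (0.20, adjusted p = 3.58e-06). The other short lengths named above for TRBJ2-2, TRBJ2-4 and TRBJ2-7 stayed lower.

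**Figure D5:**
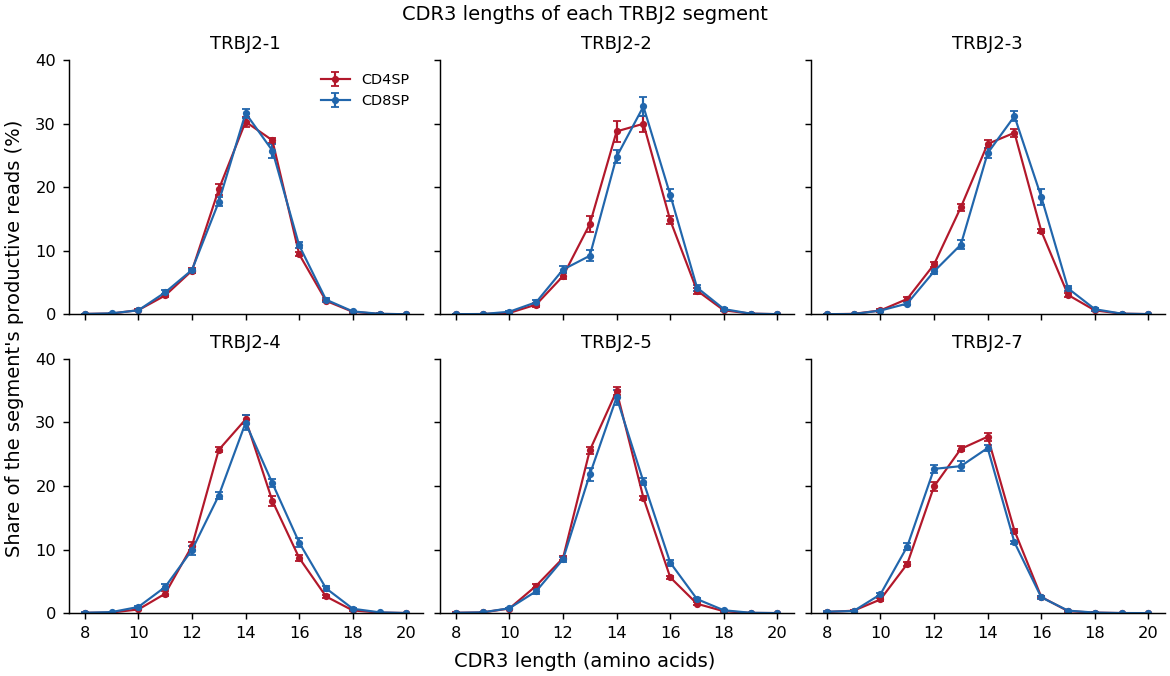
Share of each segment's productive reads (%, y axis) at each CDR3 length (amino acids, x axis) in CD4SP and CD8SP, as means of 6 libraries with SD bars. The TRBJ2-7 curve of CD4SP lies below that of CD8SP at 10 to 12 amino acids, and the TRBJ2-3 curve lies below it at 15 to 18.

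The share of TRBD2 among the D calls was higher in CD4SP in 6 of 6 mice for TRBJ2-7, TRBJ2-1 and TRBJ2-2. TRBD2 was the best-matching D segment of 57.8% ± 0.720 of TRBJ2-7 reads with a D called in CD4SP and 52.8% ± 0.509 in CD8SP, without overlap (difference 4.99 ± 0.833 points, 6 of 6 mice). For TRBJ2-1 it was 55.4% ± 1.10 in CD4SP and 51.4% ± 0.804 in CD8SP (6 of 6 mice). For TRBJ2-4 it was 55.7% ± 1.42 in CD4SP and 55.4% ± 1.51 in CD8SP, a difference of 0.267 ± 2.14 points, and for TRBJ2-5 it was 53.5% ± 1.08 in CD4SP and 53.0% ± 0.422 in CD8SP (0.544 ± 1.05 points), both within the spread. For TRBJ2-3 it was 56.5% ± 0.858 in CD4SP and 54.9% ± 0.625 in CD8SP (1.61 ± 1.301 points, 5 of 6 mice). TRBD2 was called least for TRBJ2-2, at 42.4% ± 1.69 in CD4SP and 40.3% ± 1.73 in CD8SP (2.12 ± 1.33 points, 6 of 6 mice). Over the cluster TRBD2 was called in 55.0% ± 0.471 of such reads in CD4SP and 52.2% ± 0.362 in CD8SP (6 of 6 mice, exact p = 0.03125, adjusted p = 0.0511), and with each clonotype counted once the difference was 1.85 points, against 2.78 over reads. Ties between D segments, 8.09% (TRBJ2-7) to 10.7% (TRBJ2-4) of a member's D calls, went to the first one listed. Over all libraries the cluster's TRBD2 share was 53.4%, and 59.0% without ties. The lineage and member differences were not recomputed without them.

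Trimming of the J segment also separated TRBJ2-7 from its neighbours. TRBJ2-7 had lost 3.52 ± 0.0319 bases on average in CD4SP and 3.79 ± 0.0261 in CD8SP, fewer in CD4SP in 6 of 6 mice. TRBJ2-3 had lost 1.42 ± 0.0362 in CD4SP and 1.33 ± 0.0371 in CD8SP, TRBJ2-4 2.34 ± 0.0499 in CD4SP and 2.21 ± 0.0600 in CD8SP, and TRBJ2-5 2.94 ± 0.0261 in CD4SP and 2.86 ± 0.0515 in CD8SP, each more in CD4SP in 6 of 6 mice (exact p = 0.03125, adjusted p = 0.0511 for all 4 members). The directions matched those of the lengths. The member with fewer bases lost in CD4SP was longer there, and the 3 with more bases lost were shorter. The sizes are in different units, bases lost and amino acids, and 3 bases encode 1 amino acid. CD4SP minus CD8SP was 0.0918 bases and -0.279 amino acids for TRBJ2-3, and 0.130 and -0.159 for TRBJ2-4. It was 0.0771 and -0.167 for TRBJ2-5, and -0.271 and 0.159 for TRBJ2-7. On the same scale each trimming difference was smaller than the length difference of its member, and the 2 were closest for TRBJ2-7. How much of a length difference lay in trimming was not tested. TRBJ2-2 was shorter too, but had lost 2.13 ± 0.0502 bases in CD4SP and 2.12 ± 0.0533 in CD8SP, a difference within the spread. Inserted bases, counted only in reads with a D called, also differed. TRBJ2-3 had 2.40 ± 0.0404 in CD4SP and 2.53 ± 0.0729 in CD8SP, fewer in 6 of 6 mice. This difference was larger than that of its trimming, which was counted over all its reads. TRBJ2-1 had 2.59 ± 0.0203 in CD4SP and 2.53 ± 0.0444 in CD8SP, more in 6 of 6 mice, and TRBJ2-7 had 2.62 ± 0.0449 in CD4SP and 2.62 ± 0.0117 in CD8SP.

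Over all libraries 50.4% of TRBJ2-3 reads and 39.7% of TRBJ2-4 reads kept the whole J segment. TRBJ2-2 kept it in 29.5%, TRBJ2-5 in 20.8%, TRBJ2-7 in 20.04% and TRBJ2-1 in 13.5%. For TRBJ2-7 the commonest loss was 4 bases (23.5% of reads) and for TRBJ2-1 it was 3 bases (19.9%), whereas for the other members no loss was commonest.

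Compared with the TRBJ1 cluster in the same libraries, TRBJ2 chains were longer and more varied in length. They also carried TRBD2 far more often, a direction set beforehand by the locus, where TRBD2 lies downstream of the TRBJ1 cluster. Mean length was 13.77 for TRBJ2 and 13.67 for TRBJ1 in CD4SP, and 13.78 for TRBJ2 and 13.69 for TRBJ1 in CD8SP. The most used member went the other way, since TRBJ2-7 had 13.18 in CD4SP and 13.02 in CD8SP. The SD of length was 1.44 for TRBJ2 and 1.31 for TRBJ1 in CD4SP, and 1.54 for TRBJ2 and 1.39 for TRBJ1 in CD8SP. TRBD2 was called in 55.0% of TRBJ2 and 8.02% of TRBJ1 reads with a D in CD4SP, and in 52.2% of TRBJ2 and 8.08% of TRBJ1 reads in CD8SP. TRBJ2 chains had lost 2.78 J bases and TRBJ1 chains 2.51 in CD4SP, and 2.94 (TRBJ2) and 2.49 (TRBJ1) in CD8SP. Of 10 such measures, 10 had the same sign in 6 of 6 mice (exact sign-flip permutation, adjusted p = 0.03125 each, the smallest 6 mice allow). This count includes the TRBD2 shares, whose test adds nothing to the order of the locus. Where at least 8 bases matched 1 D segment without a tie, TRBD2 was called in 66.5% of TRBJ2 and 6.26% of TRBJ1 reads. D calls rest on short stretches, and 19.8% to 28.8% of a member's reads had none. How many of the TRBD2 calls in TRBJ1 reads were wrong was not tested.

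The Chrna9 comparison asked whether loss of the receptor subunit altered the use of the cluster. It altered no member past the threshold. The cluster took 73.40%, 73.50% and 72.19% of productive reads in Chrna9-/- CD4SP libraries, against 73.30%, 74.52% and 72.96% in WT CD4SP libraries, and 73.03% ± 0.730 against 73.59% ± 0.820 on average. In CD8SP it took 74.14% ± 0.428 in Chrna9-/- and 74.16% ± 0.785 in WT libraries (SD, n = 3 each). The groups overlapped in both lineages.

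TRBJ2-7 took 21.75%, 21.81% and 21.69% of productive reads in Chrna9-/- CD4SP, against 22.56%, 22.94% and 22.05% in WT CD4SP. These groups did not overlap, which held for 1 of 6 members and for 5.71% of all segments. The log2 fold change was -0.05 (SE 0.013, adjusted p = 0.0645, edgeR), above the threshold, and the difference of this effect from that in CD8SP was -0.03 (adjusted p = 0.825). Over the alternatives the adjusted p in CD4SP ran between 0.00432 (the 6 CD4SP libraries alone) and 0.983 (DESeq2), so the call hung on the setting. In CD8SP TRBJ2-7 took 24.93%, 25.06% and 24.95% in Chrna9-/- libraries, against 25.74%, 25.49% and 24.87% in WT libraries, which overlapped. In CD4SP nonproductive joins TRBJ2-7 took 22.6% ± 1.62 in Chrna9-/- and 24.4% ± 0.273 in WT libraries (SD, n = 3 each). Its log2 fold change there was -0.11 (SE 0.065, adjusted p = 0.970, edgeR). In CD8SP nonproductive joins it took 23.1% ± 0.814 in Chrna9-/- and 24.8% ± 0.992 in WT libraries (-0.11, SE 0.067, adjusted p = 0.928).

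TRBJ2-1 took 14.63%, 14.48% and 14.47% of productive reads in Chrna9-/- CD8SP, against 13.89%, 14.03% and 14.41% in WT CD8SP, without overlap, as for 1 of 6 members and 8.57% of all segments. Its log2 fold change there was 0.04 (SE 0.027, adjusted p = 0.584, edgeR), and in CD4SP, where it took 10.58%, 10.89% and 10.15% in Chrna9-/- libraries and 10.45%, 10.37% and 10.54% in WT libraries, it was 0.01. The other members had log2 values of -0.01 to 0.02 in CD4SP and -0.04 to 0.03 in CD8SP.

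In all, 0 of 6 members passed between genotypes in CD4SP (edgeR; 1 at an unadjusted p under 0.05 and 0 by DESeq2), 0 in CD8SP (0 unadjusted and 0 by DESeq2) and 0 for the difference between the lineages. The share of all segments that passed was 0% in each. Among TRBJ2 pairs, 0 of 127 passed in CD4SP (3 unadjusted, 0 by DESeq2) and 0 of 127 in CD8SP (6 unadjusted, 0 by DESeq2), beside 0% of all pairs. Among lengths, 0 of 66 passed in CD4SP and 0 in CD8SP (5 unadjusted in each, 0 by DESeq2), beside 0% of all lengths. For mean lengths, D use and trimming the smallest exact p that 3 pairs allow is 0.25, so no such measure could pass. The mean length of TRBJ2-7 lay between 13.14 and 13.20 in Chrna9-/- CD4SP, against 13.16 and 13.20 in WT CD4SP.

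Few TRBJ2 chains were shared. Of 357084 distinct TRBJ2 nucleotide chains (the same V, J and CDR3), 93.6% were found in 1 library, 503 in at least 6 and 3 in all 12. CD4SP and CD8SP libraries of 1 mouse shared 3.51% to 4.11% of the smaller library's chains (6 pairs), libraries of 1 lineage from different mice 2.47% to 3.32% (30 pairs) and libraries of different lineage and mouse 1.70% to 2.28% (30 pairs). The first range lay above the others. Samples of 1 mouse share its sort and processing, and the part of carry-over between libraries was not tested.

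Across the 12 libraries and 28 segments with a mean share of at least 1%, the segment whose log2 share was most like that of TRBJ2-1 was TRBV17 (Pearson's r = 0.99). It was TRBV31 for TRBJ2-3 (0.99), TRBV14 for TRBJ2-7 (0.96), TRBJ2-3 for TRBJ2-2 (0.93), and TRBJ2-4 and TRBJ2-5 were most like each other (0.98). The libraries fall into 2 lineages, and with each lineage's mean removed the values were -0.00 for TRBJ2-1 with TRBV17, -0.30 for TRBJ2-3 with TRBV31 and -0.06 for TRBJ2-7 with TRBV14, but 0.69 for TRBJ2-4 with TRBJ2-5 and 0.49 for TRBJ2-2 with TRBJ2-3. Shares of 1 library sum to a whole, so such values are a description.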

How the data were processed

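Beta chain (TRB) clonotype tables of 12 libraries were used, and 12 tables of alpha and delta chains were not used here. Per the labels, RNA of sorted cells was turned into receptor libraries with a SMARTer kit and read on a MiSeq instrument, and clonotypes were assembled with MiXCR and compared with VDJtools, per the series design text. The submitters' processing notes name mm10, and the sources used here do not state MiXCR's version or settings. Per the file headers, each row of the deposited tables gives a clonotype's read count, without molecular identifiers.

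Productive reads were added up for each V or J segment, for each V-J pair and for each J and CDR3 length. Each table was tested whole with edgeR 4.0.16 in R 4.3.3 (quasi-likelihood, filterByExpr by group, Benjamini-Hochberg, threshold 0.05), with the productive reads as library size and no further scaling for segments. Expected reads of a pair were the product of its V and J totals over the library's total, and lengths were set against the reads of their J. CD4SP against CD8SP had the mouse as a block, and genotype contrasts the replicate number, because the design text names pairs. In these, both libraries of 1 mouse entered as separate samples, so their p-values may be inexact. Deviations of same-numbered Chrna9-/- and WT libraries from their group means correlated at -0.53 to 0.51 over 33 segments, so the numbers did not pair the genotypes in the data. Those of CD4SP and CD8SP libraries of 1 mouse correlated at 0.21 to 0.64. Measures per library were compared by exact two-sided sign-flip permutation. The tests were tested on simulated counts. DESeq2 1.42.0, edgeR's TMM, other filters and fits without the block were tried as alternatives. So was leaving out each library between genotypes and each mouse between CD4SP and CD8SP. Python 3.11.15 ran the other steps with pandas 2.3.3, numpy 2.4.6, scipy 1.17.1 and matplotlib 3.10.9.

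The members, lists and tests were chosen with earlier results of these data known. All members are named. V segments are named with at least 1% of TRBJ2 reads. Pairs are named as the 5 largest changes per direction among those past the threshold with a mean of at least 50 reads, and as the 5 highest and 5 lowest ratios. Lengths are named as the 5 largest changes per direction with at least 1% of a member's reads. Other lengths and pairs given were chosen after their values were seen.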

Additional observations from a re-analysis of the deposited data

Results flagged for a closer look

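For 4 of 36 measures every Chrna9-/- and WT pair moved one way in CD4SP and every pair the opposite way in CD8SP. The difference was not tested, and with 3 pairs per lineage some of 36 measures can show such a pattern by chance. The pairs rest on replicate numbers, which did not pair the genotypes in the data. The SD of CDR3 length of TRBJ2-1 differed by -0.0139 amino acids (Chrna9-/- minus WT) in CD4SP and by 0.0218 in CD8SP, a gap of -0.0357 between the lineages. For TRBJ2-3 the SD of length differed by 0.0232 in CD4SP and -0.00912 in CD8SP (gap 0.0323), and for TRBJ2-7 by 0.00791 in CD4SP and -0.0225 in CD8SP (gap 0.0304). The J bases trimmed from TRBJ2-3 differed by 0.0212 in CD4SP and -0.0582 in CD8SP (gap 0.0795).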

How the results depend on the processing

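Under the alternatives 1057 recomputed values and 176 counts of calls kept their direction and their side of the threshold or stayed within the spread, 11 values no longer passed, 4 newly passed, 10 moved by more than the spread, 6 counts moved by over 1.5 times and 2 values turned. TRBJ2-2 had a log2 value, CD4SP over CD8SP, of -0.00428 with DESeq2, whose size factors shift all segments. They put the median segment, here TRBJ2-2, near 0 by construction. The cluster's share of reads, CD4SP minus CD8SP, turned to 0.291 points with each clonotype counted once. Between genotypes in CD4SP, 1 of 6 members (TRBJ2-7) passed without clonotypes of 1 read (log2 fold change -0.06, adjusted p = 0.0206) and in the 6 CD4SP libraries alone (-0.05, adjusted p = 0.00432). Leaving out 1 library gave 0 to 1, with TRBJ2-7 passing without the third WT CD4SP library (adjusted p = 0.0333) or the third Chrna9-/- CD4SP library (0.0431). In nonproductive joins 0 members passed between CD4SP and CD8SP. The cause was not tested.

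With the mouse as a block 0 of 36 measures per library passed between CD4SP and CD8SP. The smallest exact sign-flip p that 6 mice allow, 0.03125, became 0.0511 after adjustment over these measures. Without the pairing 22 of 36 passed. The block moved no other count of calls of the members by over 1.5 times. For TRBJ2-7 between genotypes in CD4SP the adjusted p was 0.263 without the block, 0.369 with TMM and 0.983 with DESeq2.

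Leaving out each mouse in turn, with both its libraries, kept 6 of 6 members past the threshold between CD4SP and CD8SP, 32 to 39 pairs and 35 to 40 lengths. TRBV2 with TRBJ2-5 had adjusted p-values of 0.0556 and 0.0563 without the second or the third WT mouse. Depth limits the nonproductive joins, with 67 to 562 reads per member and library.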
